A study of Homo sapiens with 6 samples.

Results

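Ribosomal protein pseudogenes are copies of ribosomal protein genes scattered through the genome, and 60 of them carried enough counts to be followed in ACHN cells. They were taken as the rows of the count table whose symbol was a large-subunit (RPL) or small-subunit (RPS) name followed by P and a number, and whose raw counts summed to at least 60 over the 6 libraries. The table held 58735 rows, of which 1048 had such a symbol, 376 of these had at least 1 count and 672 had none. The members were thus chosen by their summed count, so their abundance is a description. The sum takes both groups together and does not use their difference, but the members were chosen with earlier results of these data known. A member can also reach the minimum mainly through 1 group. RPS15AP36 did so, with 1, 4 and 0 counts in control, against 19, 17 and 20 in curcumol. The 60 members held 202232 counts, or 98.9% of those at all rows with such a symbol.

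ACHN is an established human renal carcinoma line, labelled wild type and described by the submitters as clear cell renal cell carcinoma. The control group (3 libraries) was labelled as vehicle-treated, whereas the series' own design text has it untreated, so whether a vehicle was used is uncertain. The curcumol group (3 libraries) was treated with curcumol, a sesquiterpenoid of Curcuma rhizomes, at a dose and for a time not given in the sources used here. Poly(A) RNA was sequenced in pairs, and the submitters describe the libraries as independent biological replicates of this 1 line.

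Ribosomal proteins are the protein components of the large and small ribosomal subunits, and their mRNAs are among the most abundant of a dividing cell. A processed pseudogene arises when such an mRNA is copied back into DNA and inserted elsewhere, without introns and usually without a promoter. A read from the parent mRNA can therefore match a young copy as well as the gene it came from. How the authors' counting tool treated reads that match several genes, and whether it used strand, is not given in the sources used here, so counts at a near-identical copy and at its parent cannot be told apart.

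The members descended from 36 parent genes, 44 of them copies of large-subunit and 16 of small-subunit genes, and lay on 21 chromosomes. There were 19 parents with 1 member and 17 with several, the most being 5 for RPL23A. In GENCODE 29 (GRCh38) 49 were annotated as processed pseudogenes, 9 as transcribed processed and 2 as transcribed unprocessed pseudogenes. A single exon was annotated for 51 and several exons for 9. The aligned part of the members was 80.6% to 100% identical to the parent mRNA (median 98.5%). No mismatch or gap was found in 5 members, RPS28P7, RPL21P16, RPL39P3, RPL41P1 and RPL41P5. In 27 members the reading frame from the parent's start codon was as long as the parent's.

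The sequences below, all 5′ to 3′ from GENCODE 29, show the range from a copy identical to the parent's coding sequence to copies with many differences. RPS28P7, a copy of the small-subunit gene RPS28, lies at chr11:82689559-82689768 (+, GRCh38). Its whole annotated exon of 210 bases equals the coding sequence of RPS28, so it has no capitals.
RPS28P7: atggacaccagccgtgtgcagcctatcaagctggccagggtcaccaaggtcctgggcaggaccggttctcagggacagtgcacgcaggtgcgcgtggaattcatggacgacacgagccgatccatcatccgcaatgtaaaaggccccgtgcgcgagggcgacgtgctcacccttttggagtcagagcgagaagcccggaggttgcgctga

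In each pair that follows, the 60 bases of the coding part with the most mismatches are shown, with the mismatched bases in capitals. RPL9P9 (chr15:82372494-82372553, −) is shown because it had the highest count, and its only difference from the RPL9 coding sequence is T366C, counted from the A of the start codon with the parent base first.
RPL9P9: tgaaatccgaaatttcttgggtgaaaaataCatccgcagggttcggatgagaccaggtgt
RPL9: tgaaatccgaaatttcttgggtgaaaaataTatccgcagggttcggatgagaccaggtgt

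RPS2P5 (chr12:118246856-118246915, +) is shown as the most abundant copy that did not pass the test of curcumol against control, and has 3 mismatches to RPS2 in this stretch.
RPS2P5: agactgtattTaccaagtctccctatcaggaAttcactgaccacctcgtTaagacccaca
RPS2: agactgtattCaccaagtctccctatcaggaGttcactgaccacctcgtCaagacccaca

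RPL24P4 (chr6:42956403-42956462, −) and RPL26P19 (chr5:56504690-56504749, −) are shown because they were the 2 copies at least 98% identical to the parent whose change differed from the parent's. They have 3 and 5 mismatches here.
RPL24P4: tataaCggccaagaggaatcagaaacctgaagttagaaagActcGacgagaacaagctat
RPL24: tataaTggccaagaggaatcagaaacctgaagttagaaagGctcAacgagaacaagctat
RPL26P19: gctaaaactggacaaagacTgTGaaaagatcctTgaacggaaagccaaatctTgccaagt
RPL26: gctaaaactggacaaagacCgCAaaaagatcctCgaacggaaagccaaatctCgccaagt

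RPL17P50 (chr10:73006423-73006482, −), RPS15AP36 (chr19:58216232-58216291, +) and RPS10P7 (chr1:201520477-201520536, +) are shown because they differed most from their parents in how they changed. They have 5, 13 and 6 mismatches in these stretches.
RPL17P50: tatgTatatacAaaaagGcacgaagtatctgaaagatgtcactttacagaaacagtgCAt
RPL17: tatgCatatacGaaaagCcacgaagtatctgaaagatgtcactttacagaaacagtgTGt
RPS15AP36: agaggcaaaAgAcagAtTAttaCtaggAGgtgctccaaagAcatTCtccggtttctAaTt
RPS15A: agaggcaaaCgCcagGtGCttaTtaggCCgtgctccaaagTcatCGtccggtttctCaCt
RPS10P7: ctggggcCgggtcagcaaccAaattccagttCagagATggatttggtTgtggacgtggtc
RPS10: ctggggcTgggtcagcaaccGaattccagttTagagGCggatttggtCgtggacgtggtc

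The libraries held 16962012 to 17827433 counts, and the members took 0.154% ± 0.00163 (SD, n = 3) of them in control and 0.234% ± 0.0141 (SD, n = 3) in curcumol. All 9 renal epithelial markers had counts in every library, with a summed level of 3663 to 3861 CPM (counts scaled to a common library size) in control and 2391 to 2675 CPM in curcumol. Summed markers of leukocytes were at 0 to 0.155 CPM in control and 4.74 to 5.53 CPM in curcumol, mostly CD14, with CD3E at 0. Those of fibroblasts were at 7.07 to 8.29 CPM and 7.69 to 20.6 CPM, where COL1A2 had 70 counts in curcumol replicate 2 and 0 or 1 in each other library. Endothelial markers summed to at most 0.821 CPM and erythroid markers to at most 0.251 CPM, with HBB at 0. The part of these levels in the results below was not tested.

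Of the 59 members tested, 41 rose and 3 fell in curcumol and 15 did not pass (edgeR quasi-likelihood test, Benjamini-Hochberg adjusted p under 0.05). Among all 15160 genes tested, 39.4% rose and 40.3% fell, or 79.7% together. The median log2 fold change was 0.90 over the tested members and −0.02 over all genes tested. The 36 parent genes had a median of 0.88, with 32 that rose, 1 that fell (RPL26) and 3 that did not pass (RPS2, RPL10A and RPS10). All 3 curcumol libraries lay above all 3 controls for 40 members and below them for 2, and the groups overlapped for 18. Among all genes tested, 39.8% lay wholly above and 41.1% wholly below. Scaling by library totals in place of TMM factors moved the median of all genes to −0.28, and then 35 members rose and 7 fell.

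RPS11P5, with 12, 7 and 5 counts in control, against 7, 26 and 5 in curcumol, was the 1 member that did not pass the filter on low counts. The filter kept genes at about 10 counts in a library of median size (0.575 CPM) in at least 3 libraries. RPL17P50, RPS3AP38 and RPS15AP36 reached that level in no control library and RPL26P30 in no curcumol library, so each of these passed through 1 group alone and had to differ. Their calls are included in the counts above and in those against the parent below, and are no support for a change. Just inside the minimum of 60 lay RPS15AP36 with 61 counts in all, RPS11P5 with 62 and RPS3AP38 with 64. Just outside it lay RPL21P10 with 50, RPS26P6 with 49 and RPL22P4 with 44.

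**Figure D1:**
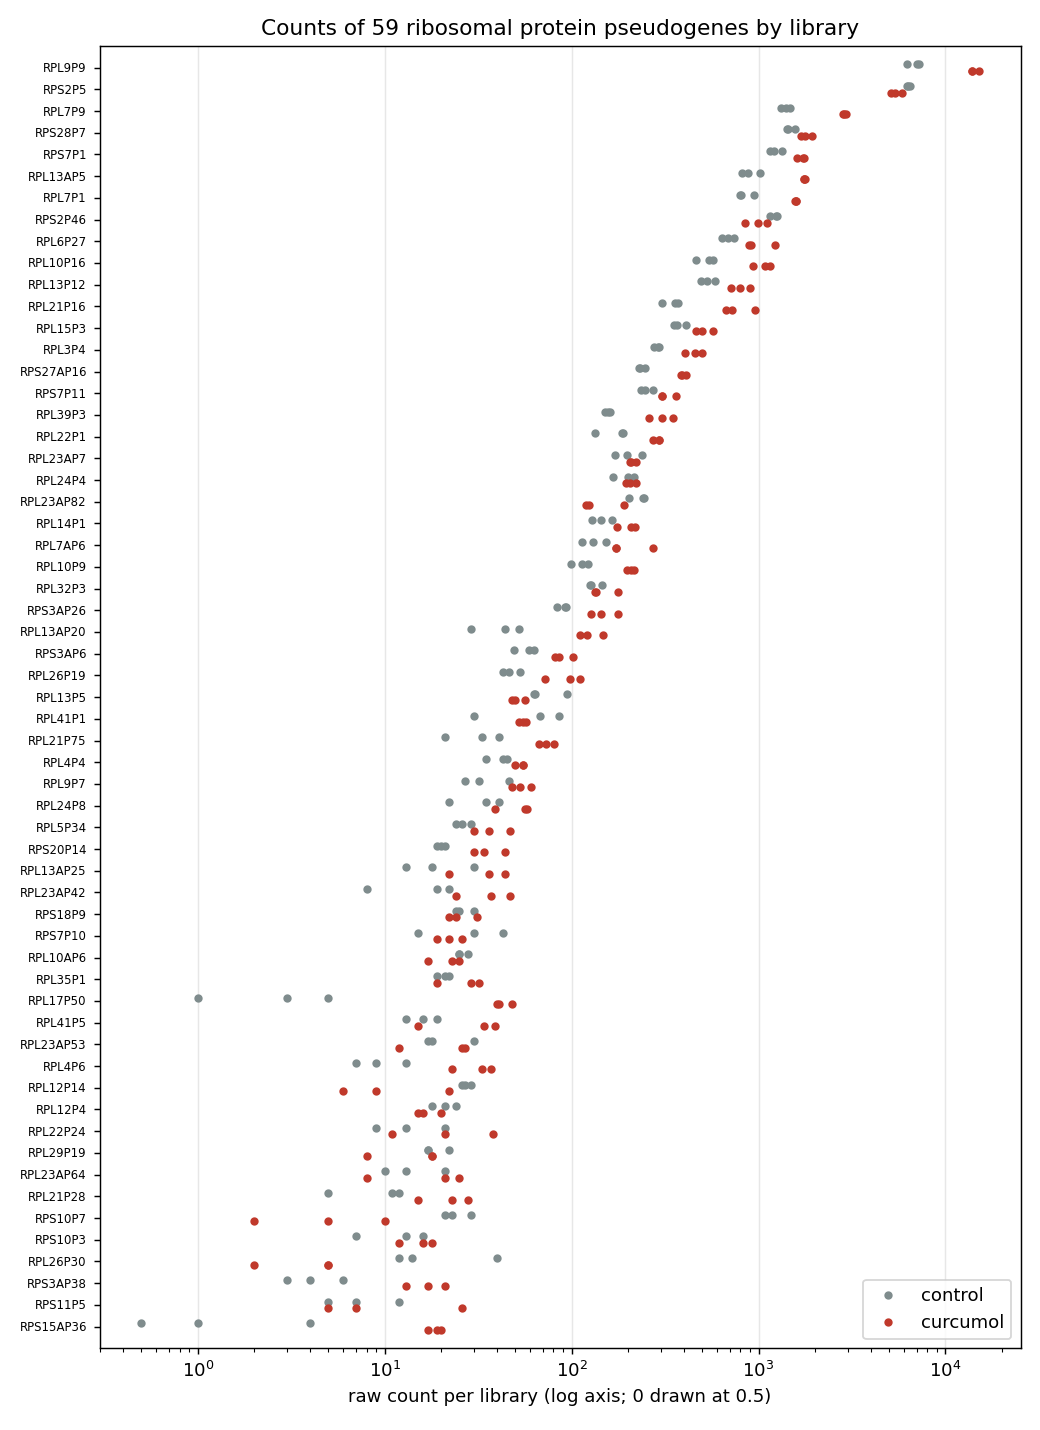
Raw count of 59 of the 60 pseudogenes (rows, ordered by summed count) in each of the 6 libraries, on a log axis with a count of 0 drawn at 0.5; grey points are control and red points curcumol. RPL9P9 and RPS2P5 stand at the top and hold 48.7% of the members' counts, and RPL17P50 and RPS15AP36 show the widest gap between the groups.

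RPL9P9, a copy of the large-subunit gene RPL9 on chr15:82372196-82372912 (ENSG00000237550), had the highest count of all members. Its counts were 6261, 7229 and 7051 in control, against 15045, 13806 and 13818 in curcumol. The groups did not overlap, and RPL9P9 rose by 1.33 ± 0.06 on the log2 scale (SE, edgeR adjusted p = 1.07e-14). RPL9 itself had 3506, 3696 and 3579 counts in control, against 7381, 6939 and 6890 in curcumol, a rise of 1.25 ± 0.06. The copy thus held more counts than the gene, at 190% ± 10.3 of its count in control and 201% ± 2.48 in curcumol (SD, n = 3). Per kilobase of transcript (all exons of the copy, the principal transcript of the parent), the control level was 499 CPM at the copy and 251 CPM at RPL9. The changes of copy and gene differed by 0.08 ± 0.07 (SE; 95% interval −0.07 to 0.23; limma adjusted p = 0.417). The other RPL9 copy, RPL9P7 on the X chromosome, carries T366C too and had 27 to 46 counts in control and 48 to 61 in curcumol.

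RPS28P7 was the other member with more counts than its parent. It had 1425, 1437 and 1564 counts in control, against 1935, 1766 and 1694 in curcumol, against 651, 532 and 581 and then 754, 654 and 663 at RPS28. The copy stood at 253% ± 29.3 of the parent's count in control and 261% ± 8.08 in curcumol (SD, n = 3). Per kilobase the control level was 368 CPM at the copy (210 bases, the coding sequence alone) and 23.2 CPM at RPS28 (a transcript of 1326 bases). This gap therefore depends on the lengths taken. Both rose, by 0.56 ± 0.07 and 0.51 ± 0.10 (SE), and their changes differed by 0.05 ± 0.11. The exon bases of RPS28 are shared to 27.5% with KANK3 on the other strand, which had 2 to 8 counts per library.

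The RPS2 family was the largest that did not move with the rest. RPS2, a small-subunit protein near the mRNA entry site, had 45809, 50274 and 47918 counts in control, against 42759, 41391 and 37792 in curcumol, a log2 fold change of 0.04 ± 0.06 (edgeR adjusted p = 0.572). RPS2P5 had 6440, 6244 and 6288 counts in control, against 5866, 5346 and 5089 in curcumol, or 331 ± 13.4 and 344 ± 28.2 CPM after scaling (SD, n = 3). Its log2 fold change was 0.06 ± 0.06, and that of RPS2P46, the other copy, −0.03 ± 0.09. The scaled levels of both copies overlapped between the groups. These values turn on the scaling: with library totals RPS2P5 was at −0.21 and RPS2P46 at −0.29, and with an offset for GC content RPS2P5 was at 0.70 and RPS2P46 at 0.60, each past the threshold.

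RPL7P9 and RPL7P1, copies of the large-subunit gene RPL7 with 2 and 3 mismatches over 747 aligned bases, rose as RPL7 did. RPL7P9 had 1401, 1315 and 1475 counts in control, against 2947, 2842 and 2875 in curcumol. RPL7P1 had 802, 794 and 941 counts and then 1595, 1576 and 1592. In both copies the groups were far apart, with rises of 1.32 ± 0.06 and 1.18 ± 0.07 against 1.19 ± 0.05 at RPL7 (SE). The differences from RPL7 were 0.13 ± 0.07 and −0.01 ± 0.08, neither past the threshold (limma adjusted p = 0.188 and 0.956).

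RPS7P1, RPL13AP5, RPL6P27, RPL10P16 and RPL13P12, which were also among the 12 most abundant members, rose. Their log2 fold changes ran from 0.73 ± 0.07 for RPS7P1 to 1.28 ± 0.10 for RPL10P16, and RPL10P16 differed from RPL10 by 0.02 ± 0.11. RPL13AP5 had 818, 874 and 1021 counts in control, against 1753, 1755 and 1762 in curcumol. It stood at 4.10% ± 0.357 of the count of RPL13A in control and 4.24% ± 0.206 in curcumol (SD, n = 3).

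Among copies without any mismatch, RPL21P16 and RPL39P3 rose by 1.46 ± 0.12 and 1.23 ± 0.13, against 1.02 ± 0.06 at RPL21 and 1.50 ± 0.07 at RPL39. RPL21P16 differed from RPL21 by 0.43 ± 0.18 and RPL39P3 from RPL39 by −0.28 ± 0.15, neither past the threshold (limma adjusted p = 0.0816 and 0.162). The difference of RPL21P16 was 0.22 without curcumol replicate 1 (adjusted p = 0.156). It passed without curcumol replicate 2 (0.60, adjusted p = 0.00578) and with no filter on low counts (adjusted p = 0.00432). It also passed with the replicate number as a block (0.44, limma adjusted p = 0.0248). RPL41P1, an 81-base copy, had 30, 86 and 68 counts in control, against 55, 57 and 52 in curcumol, and did not pass. RPL41P5 had 13, 16 and 19 counts in control, against 39, 15 and 34 in curcumol, and passed with overlapping groups (log2 fold change 1.15 ± 0.39, edgeR adjusted p = 0.0108). These small copies were measured on few counts, with wide errors.

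Further members of the rule for named genes had fewer counts. RPL21P75, with a single mismatch to RPL21, had 33, 41 and 21 counts in control, against 81, 73 and 67 in curcumol, and rose by 1.49 ± 0.25 (SE). RPL23AP42 had 22, 8 and 19 counts, against 24, 47 and 37, and rose by 1.40 ± 0.38. RPL24P8, which has no 100-base window in another gene's transcript, had 41, 35 and 22 counts, against 56, 58 and 39, and rose by 0.91 ± 0.28, the change of RPL24 being 0.91 ± 0.06. In none of these did the test of the difference from the parent pass (limma adjusted p = 0.179, 0.208 and 0.951).

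RPL32P3, an unprocessed copy of RPL32 that also lacks such a window, had 126, 127 and 146 counts in control, against 135, 134 and 177 in curcumol. Its scaled levels did not overlap, and it rose by 0.44 ± 0.15, against 0.85 ± 0.05 at RPL32. The rise did not pass with library totals (0.17) or without curcumol replicate 3 (0.30), and the difference from RPL32 was −0.43 ± 0.16 (limma adjusted p = 0.0526; −0.57 and 0.0158 without curcumol replicate 3).

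To compare each family with its parent gene, the log2 ratio of copy to parent was tested in each pair across the 6 libraries with limma. Of 59 members tested, 4 changed more upward than the parent, 6 more downward, and 49 did not pass. The 4 include RPL17P50 and RPS15AP36, which passed the filter through the curcumol group alone. Of 6166 pairs formed by symbol over the whole table, ribosomal or not, 394 had both genes past the filter and were tested, and of these 19.5% were above, 15.7% below and 35.3% either way. The median absolute difference was 0.26 (log2) over the members and 0.60 over the other 335 pairs. These sets were not matched for counts, on which the value depends. Among the members it was 0.07 at a mean of at least 200 counts per library and 0.48 under 50. The medians therefore do not show that members follow their parents more closely than other pairs do. A pair that did not pass is not shown to have changed alike. Across the 59 members the log2 fold changes of copy and parent had a Pearson's r of 0.48 and a Spearman's rho of 0.60, as a description, since members of 1 parent share its value and all share the 6 libraries.

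**Figure D2:**
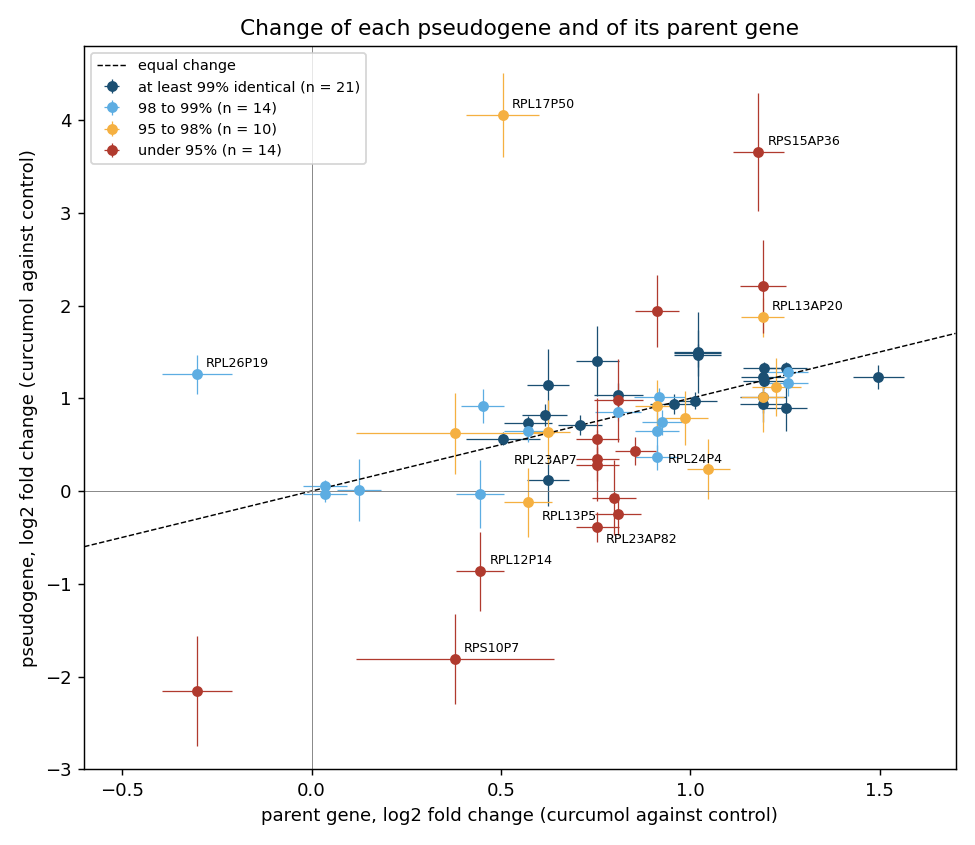
Log2 fold change (curcumol against control) of each of the 59 tested pseudogenes on the vertical axis against that of its parent gene on the horizontal axis; bars are SE and colour is identity to the parent mRNA. Most points lie near the dashed line of equal change, and the 10 named points passed the test of the difference, from RPL17P50 at 4.06 against 0.50 to RPS10P7 at −1.81 against 0.38.

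Of the 10 members that differed from the parent, 8 were under 98% identical to it. None of the 21 members at least 99% identical passed the test of the difference, and 20 of them rose. That count of 0 held with all 6 libraries, the filter and no replicate block. RPL21P16 passed in the settings given above, the block among them. RPL41P1 passed without control replicate 1 (−0.80, adjusted p = 0.0225) and RPS7P1 without curcumol replicate 1 (0.23, adjusted p = 0.0428). In the class from 98% to 99%, 2 of 14 differed. From 95% to 98% it was 2 of 10 tested, and under 95% it was 6 of 14. The counts behind these classes were unequal: the median member at least 98% identical had a mean of 230 counts per library and an SE of the difference of 0.148. Below 98% these were 23 counts and 0.389, so the more diverged copies were measured less precisely. The difference between the classes was not tested.

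The members were also split by sequence shared with other transcripts. Of the 16 members that had at least 50% of their 100-base windows in transcripts of other genes, all 16 rose and 0 differed from the parent by limma, RPL21P16 apart under the settings given above. From 10% to 50% it was 3 of 19 that differed, under 10% but above 0 it was 4 of 9 tested, and of the 13 without such a window 6 rose and 3 differed. The median SE of the difference was 0.130 in the first of these classes and 0.413 in the last, at a median mean of 406 and 20.3 counts per library. Windows were looked for in annotated transcripts alone, so copies outside the annotation were not seen. Of the 9 members annotated with several exons, 5 differed from the parent, against 5 of 50 tested with 1 exon.

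**Figure D3:**
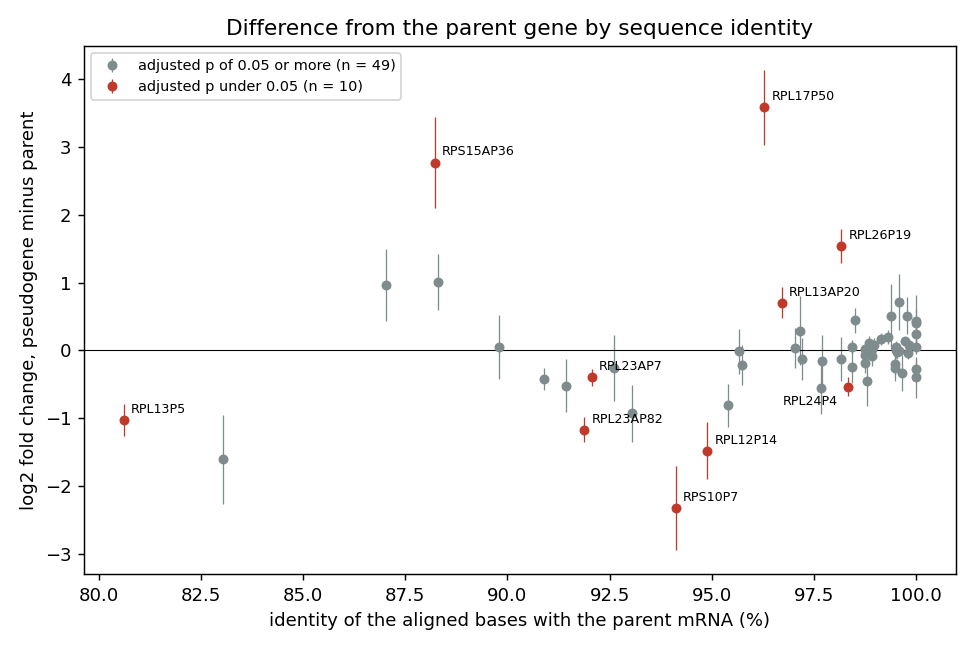
Difference of the log2 fold changes, pseudogene minus parent (vertical axis, bars are SE), against percent identity of the aligned bases with the parent mRNA (horizontal axis) for 59 tested pseudogenes. Points at 99% or above stay between −0.40 and 0.71, while those under 95% run from −2.33 to 2.77; red points passed at an adjusted p under 0.05.

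RPL17P50 differed most from its parent. This copy of the large-subunit gene RPL17 (chr10:73005833-73006595, −, ENSG00000213700, 96.3% identical) had 1, 3 and 5 counts in control, against 41, 40 and 48 in curcumol. RPL17 had 440, 515 and 549 counts in control, against 523, 639 and 600 in curcumol. Of the exon bases of the RPL17 transcript, 91.0% are shared on the same strand with RPL17-C18orf32. That gene had 0, 4 and 1 counts in control, against 7, 13 and 13 in curcumol. The copy was near 0 in every control library, and its fitted change of 4.06 ± 0.46 (SE) rests on those few counts. The difference from RPL17 was 3.58 ± 0.55 (95% interval 2.41 to 4.75; limma adjusted p = 4.34e-05). Since the copy passed the filter through the curcumol group alone, this p-value is no support for a difference. RPL17P50 lies 622 bases downstream of P4HA1 on the same strand, a gene for the catalytic subunit of collagen prolyl hydroxylase. P4HA1 had 1576, 1705 and 1816 counts in control, against 8893, 9417 and 9339 in curcumol, and rose by 2.72 ± 0.06; its part in the counts of RPL17P50 was not tested.

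RPS15AP36, a copy of the small-subunit gene RPS15A (chr19:58216180-58216561, +, 88.2% identical), had 1, 4 and 0 counts in control, against 19, 17 and 20 in curcumol. All curcumol libraries were higher, and the fitted change was 3.66 ± 0.64 (SE). RPS15A rose by 1.18 ± 0.07, a difference of 2.77 ± 0.67 (limma adjusted p = 0.00305). This p-value too is no support for a difference, since the copy passed the filter through the curcumol group alone. Of the exon bases of the RPS15A transcript, 41.5% are shared on the same strand with AC138811.2. That gene model had 0 counts in each control library, against 10, 7 and 11 in curcumol. The same-strand gene upstream, ZNF274, a zinc-finger gene that ends 2618 bases away, rose by 1.67 ± 0.09. AC020915.3, 40709 bases downstream on the other strand, was at −0.24 ± 0.33. The part of either gene in the result was not tested.

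RPL26P19 rose while its parent fell. The copy (chr5:56504635-56505072, −, ENSG00000226221) had 46, 43 and 53 counts in control, against 111, 98 and 72 in curcumol. RPL26, a large-subunit gene, had 605, 604 and 663 counts in control, against 403, 391 and 460 in curcumol. The groups were apart in both, with a rise of 1.26 ± 0.21 in the copy and a fall of RPL26 by 0.30 ± 0.09 (SE). The difference was 1.54 ± 0.26 (limma adjusted p = 9.53e-05). RPL26 had few counts for a ribosomal protein gene, and 65.3% of the exon bases of its transcript are shared on the same strand with the gene model AC135178.2, which is listed at 0 in all 6 libraries.

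RPL13AP20, a copy of RPL13A that keeps the whole reading frame, had 29, 44 and 52 counts in control, against 147, 111 and 121 in curcumol. Every curcumol library was above every control, and it rose by 1.88 ± 0.21 against 1.19 ± 0.06 at RPL13A. Its difference of 0.70 ± 0.23 passed (limma adjusted p = 0.0226), but not without control replicate 1 (adjusted p = 0.144) or curcumol replicate 1 (adjusted p = 0.0641). On the same strand, DDX47, 45518 bases upstream, was at 0.03 ± 0.21, and GPRC5A, 14675 bases downstream, fell by 0.24 ± 0.05. Their part in the result was not tested.

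RPS10P7 fell and lay furthest below its parent. This transcribed copy of the small-subunit gene RPS10 (chr1:201518703-201584367, +) had 29, 23 and 21 counts in control, against 2, 5 and 10 in curcumol. RPS10 itself was counted at 32, 52 and 39 in control, against 52, 37 and 43 in curcumol, and 84.0% of its exon bases are shared with RPS10-NUDT3, listed at 0 in each library. The groups were apart for the copy and overlapped for the parent. RPS10P7 fell by 1.81 ± 0.48 on the log2 scale (SE, edgeR adjusted p = 0.00187). The difference from RPS10 was −2.33 ± 0.62 (limma adjusted p = 0.00598), and was lost without curcumol replicate 1 (adjusted p = 0.0525). The same-strand gene NAV1, a neuron navigator gene that begins 38518 bases downstream, fell by 1.98 ± 0.07. CSRP1, nearer at 9247 bases upstream but on the other strand, was at −0.13 ± 0.09. The part of either gene in the result was not tested.

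RPL12P14, a single-exon copy of RPL12 (94.9% identical), also lay well below its parent. It had 29, 27 and 26 counts in control, against 22, 9 and 6 in curcumol, with scaled levels that overlapped through the first curcumol library. Its log2 fold change was −0.87 ± 0.42 (edgeR adjusted p = 0.0664), against a rise of RPL12 by 0.45 ± 0.06. The difference of −1.48 ± 0.42 passed (limma adjusted p = 0.00884), but not without curcumol replicate 3 (adjusted p = 0.0521). FBLIM1, a gene for an adhesion-site LIM protein 6202 bases upstream on the same strand, fell by 1.23 ± 0.09. UQCRHL, 13884 bases downstream on the other strand, was at 2.16 ± 0.87 (edgeR adjusted p = 0.0788). The part of either gene in the result was not tested.

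RPL23AP82 and RPL13P5, which have several exons, share exons with other genes. RPL23AP82 (chr22:50756948-50801309, +) had 242, 244 and 204 counts in control, against 191, 120 and 124 in curcumol. It fell by 0.39 ± 0.16 (edgeR adjusted p = 0.0353) with overlapping scaled levels. The call was lost with RLE size factors (adjusted p = 0.0513), with DESeq2 (0.0780), without control replicate 1 or 2 (0.107 and 0.0924) and without curcumol replicate 2 or 3 (0.187 and 0.157). RPL23A, its parent, rose by 0.75 ± 0.06, and the difference was −1.17 ± 0.18 (limma adjusted p = 4.73e-05). It shares 167 exonic bases with RABL2B, a small GTPase gene on the other strand that fell by 1.41 ± 0.12.

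RPL13P5 had 64, 95 and 63 counts in control, against 48, 50 and 56 in curcumol and did not pass (log2 fold change −0.25 ± 0.22). Its value was 0.29 with the GC offset, and with library totals it was −0.51 and passed. Its difference from RPL13 was −1.03 ± 0.23 (limma adjusted p = 0.00169). It shares 561 exonic bases with LRRC23 on the same strand, which fell by 0.77 ± 0.18, and 228 with SPSB2 on the other strand, which fell by 0.59 ± 0.15. The part of these shared exons in either result was not tested. RPL13P5 also has same-strand neighbours that rose, TPI1 2441 bases upstream by 1.07 ± 0.07 and ENO2 29004 bases downstream by 1.57 ± 0.07. Their part was not tested either.

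RPL24P4 and RPL23AP7 passed the edgeR test upward but rose less than their parents. RPL24P4 had 200, 167 and 217 counts in control, against 221, 205 and 195 in curcumol, or 10.2 ± 1.38 and 13.1 ± 0.945 CPM (SD, n = 3). Its raw counts overlapped while its scaled levels did not, with a rise of 0.36 ± 0.13 against 0.91 ± 0.06 at RPL24. The difference was −0.54 ± 0.14 (limma adjusted p = 0.00566). The edgeR call of RPL24P4 was lost with library totals (0.10 on the log2 scale), without control replicate 2 (0.26) and without curcumol replicate 1 (0.31). RPL23AP7 had 171, 199 and 237 counts in control, against 209, 222 and 206 in curcumol. Its raw counts overlapped too, while its scaled levels did not, with a rise of 0.35 ± 0.13 against 0.75 ± 0.06 at RPL23A. RPL23AP7 differed from RPL23A by −0.40 ± 0.13 (limma adjusted p = 0.0206). It was not among the members that passed without control replicate 3, without curcumol replicate 3 or with no filter on low counts. RABL2A, 139 bases upstream of RPL23AP7 on the other strand, fell by 1.09 ± 0.19. AL078621.3, 2594 bases downstream on the same strand, rose by 1.39 ± 0.53. The part of either gene in the result was not tested.

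RPL26P30, the third member that fell, had 40, 12 and 14 counts in control, against 5, 5 and 2 in curcumol. It passed the filter through the control group alone, so its call is no support for a fall. It fell by 2.16 ± 0.59 on the log2 scale (SE), and most of its control counts came from replicate 1. Without that library, 1 member fell, RPS10P7, and RPL26P30 lost its call. Its difference from RPL26 did not pass (−1.61 ± 0.66, limma adjusted p = 0.0660). That difference came under the threshold without control replicate 2 (−1.90, limma adjusted p = 0.0431) and with the replicate block (−1.71, limma adjusted p = 0.0205).

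**Figure D4:**
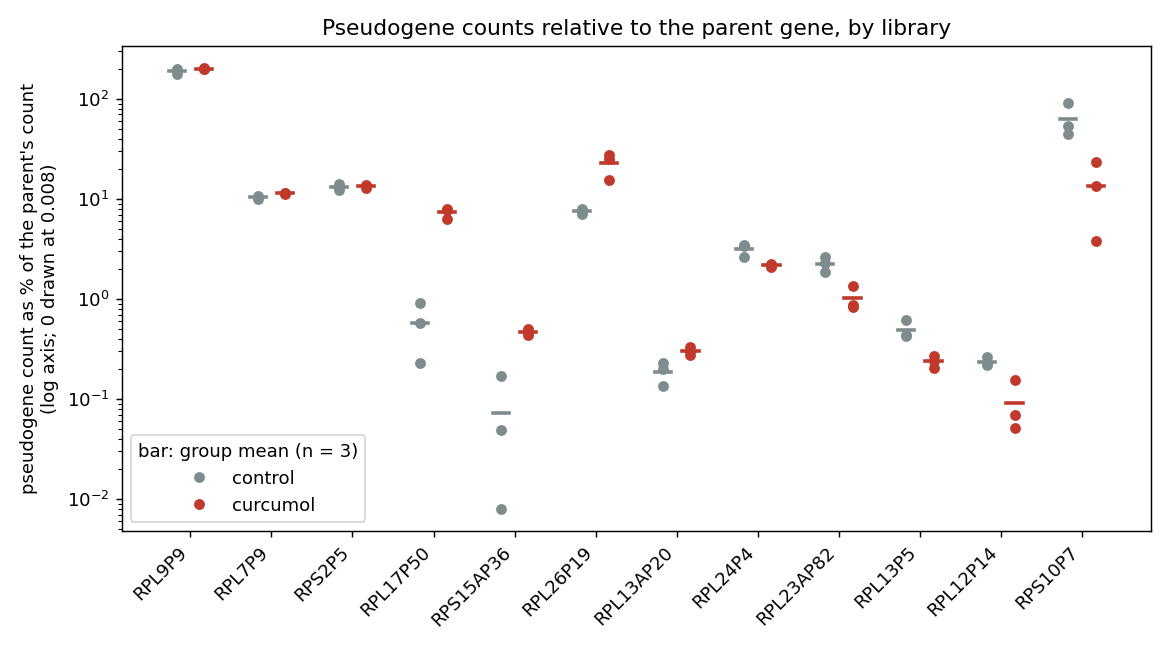
Count of 12 pseudogenes as a percentage of the parent gene's count in each library (points; log axis with 0 drawn at 0.008), with a bar at the mean of the 3 libraries of each group. RPL9P9, RPL7P9 and RPS2P5 kept nearly level ratios, RPL17P50, RPS15AP36, RPL26P19 and RPL13AP20 shifted up, and RPL24P4, RPL23AP82, RPL13P5, RPL12P14 and RPS10P7 shifted down.

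An intron of a protein-coding gene held 19 members, 8 on the host's strand and 11 on the other, while 8 members shared exonic bases with another gene and 27 overlapped no annotated gene. Host and copy did not always change together. RPL4P6, an 88.3% identical copy of RPL4, had 9, 7 and 13 counts in control, against 37, 23 and 33 in curcumol. It rose by 1.94 ± 0.39 within an intron of MRTFA, a transcriptional coactivator gene at 0.10 ± 0.08 on the same strand. RPL22P1 rose by 1.03 ± 0.14, against 0.81 ± 0.06 at RPL22, while its same-strand host MECOM, a zinc-finger transcription factor gene, fell by 1.01 ± 0.12. RPS3AP38 had 6, 4 and 3 counts in control, against 13, 21 and 17 in curcumol, and its same-strand host HERC4, a ubiquitin ligase gene, rose by 0.46 ± 0.08.

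Counts at the pseudogenes made up 6.30% ± 0.0822 (SD, n = 3) of the counts of the 36 families, members and parents together, in control and 6.50% ± 0.0856 in curcumol. The 3 curcumol libraries (6.59%, 6.42% and 6.50%) lay above the controls (6.39%, 6.23% and 6.28%), a difference of 0.204 percentage points. The exact two-sided permutation test gave p = 0.1, the smallest that 3 against 3 libraries allow. The direction rests on RPL9P9: without it the share was 4.77% ± 0.155 in control and 4.32% ± 0.0784 in curcumol.

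The share was higher in every curcumol library than in any control in 6 families, lower in 8, and overlapped in 22. No matching count over other pseudogene families is given here, so these numbers are a description alone. RPL9 moved from 65.6% ± 1.25 to 66.9% ± 0.260, and RPL7 from 14.3% ± 0.393 to 15.0% ± 0.190. RPL21, with 3 copies, moved from 5.65% ± 0.261 to 7.63% ± 1.85. The shift was from 0.569% ± 0.338 to 6.86% ± 0.839 for RPL17 and from 9.99% ± 2.17 to 19.0% ± 4.53 for RPL26, whose parents had few counts. RPS10 went the other way, from 47.0% ± 9.88 to 32.3% ± 5.004, and so did RPL23A with its 5 copies, from 4.54% ± 0.300 to 2.95% ± 0.226 (each SD, n = 3).

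Parent changes were fitted again with the members' counts added to them, a check chosen after seeing the data. It shows how far the counts placed at the copies move a parent's value. Any shared reads that were not counted are missing from both fits, so it sets no bound on the effect of shared reads. Where the copies hold few of the family's counts, a small move is fixed by arithmetic. With copies merged, edgeR called 33 parents as risen, 0 as fallen and 3 as neither, and 32 of the 36 moved by under 0.05 on the log2 scale. RPL26 went from −0.30 to −0.15 and lost its call (adjusted p = 0.114). RPL17 went from 0.50 to 0.60, RPL9 from 1.25 to 1.31 and RPS10 from 0.38 to 0.03. RPL10A, at 0.13 in both fits, came under the threshold (adjusted p = 0.0473).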

How the data were processed

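The table of raw counts (integers per gene, not normalized) is used as deposited, for 6 poly(A) RNA-seq libraries. The build is GRCh 38 (hg 38), per the submitters' processing notes. The sources used here name no aligner, counting tool, strand setting or treatment of multi-mapping reads. All 58735 identifiers are in GENCODE 29, whose transcripts gave sequence, exons and GC content.

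Samples were grouped by label. Genes were filtered (filterByExpr), scaled with TMM and tested with edgeR 4.0.16 quasi-likelihood F tests in R 4.3.3, adjusted over 15160 genes. Each SE is the size of the log2 fold change over the root of its F. The pair test used limma 3.58.1 with voom on log2 CPM of copy minus parent, adjusted over 394 pairs, of which 371 have a first gene annotated as a pseudogene. The code was tested on simulated counts. Members were aligned locally to the parent's principal transcript (Biopython 1.88; match 2, mismatch −3, gap opening −5, extension −2). Within groups, libraries differed by more than counting noise (chi-square 3.48 to 8.00 per degree of freedom), so each counted once. With 3 libraries a group, replicates limit abundant members, and counting error limits those near 0.

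The members and lists were chosen with earlier results of these data known. Named were the 12 members with the largest summed count, and the 6 largest rises and falls among those passing with a mean of at least 20 counts and no overlap (0 falls qualified). Also named were the 5 largest differences from the parent each way, the 3 rows on each side of the minimum, and the 3 members with the highest and lowest share of windows elsewhere. Every other member named, such as RPL26P30, RPL23AP7 and RPL22P1, was named after its values were seen. The values of 1 named member and of 1 list are not reported here. Alternatives were RLE size factors, library totals, DESeq2 1.42.0, limma-voom, 2 other filters, a GC offset (spline, 5 degrees of freedom), the replicate number as a block, each library left out and other member rules.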

Additional observations from a re-analysis of the deposited data

How the results depend on the processing

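The number of members that rose (41) ran from 35 with library totals to 42, and was 31 of 36 at a summed count of at least 200. The number that fell, 3, was 2 with RLE size factors, 7 with library totals, 2 with DESeq2, 1 with the stricter filter, 1 at a summed count of at least 200, and 1 to 4 with a library left out. The count that differed from the parent (10) ran from 9 to 14 with a library left out, 14 of them without curcumol replicate 2. The shift of the pseudogene share, 0.204 percentage points, was −0.452 without RPL9P9. Replicate numbers did not pair the samples (correlations of deviations 0.0238, −0.0123 and 0.0751). With the replicate block 41 members rose, 3 fell and 14 differed from the parent, 6 above and 8 below. The block brought RPL21P16 (adjusted p = 0.0248), RPL7AP6 (0.0190), RPL32P3 (0.0374) and RPL26P30 (0.0205) under the threshold of the pair test.

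Of 403 alternative values for the 29 named members tested, 379 kept their direction and side of the threshold, 6 came to pass, 11 ceased to pass and 7 changed sign. The last were RPL13P5 (0.29 with the GC offset), RPS2P5 (−0.21 with library totals, −0.010 to 0.11 with a library left out) and RPS2P46 (0.0066 with RLE size factors, 0.0065 with DESeq2, 0.60 with the GC offset, −0.14 to 0.078 with a library left out). The cause was not tested. RPL12P14 passed with library totals (−1.13), limma-voom (−1.04) and without curcumol replicate 1 (−1.58). Members under about 10 counts per library are limited by depth.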

Other observations

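Among pseudogenes whose symbols fall outside the rule, RPLP0P6, a copy of a ribosomal stalk protein gene, rose by 0.86 ± 0.06 (SE) and RPSAP15, a copy of the small-subunit gene RPSA, by 0.97 ± 0.08 (edgeR, adjusted p under 0.05). Both were named after their values were seen. Of 81 tested cytosolic ribosomal protein genes, 74 rose and 2 fell, RPL26 and RPL39L, the latter by 0.76 ± 0.15.

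Pseudogenes of other abundant mRNAs varied by family. All 3 tested copies of EEF1A1, a translation elongation factor gene, rose, EEF1A1P5 by 1.32 ± 0.05. All 3 tested copies of NPM1, a nucleolar chaperone gene, were called as risen too, from NPM1P27 at 0.29 ± 0.10 to NPM1P9 at 1.76 ± 0.43. NPM1P9 had 5, 8 and 10 counts in control, against 23, 17 and 25 in curcumol. NPM1P26 had 8, 9 and 5 counts, against 12, 17 and 13. Both reached the filter level in no control library, so the calls of NPM1P9 and NPM1P26 are no support for a change. Of the 6 tested copies of HNRNPA1, an RNA-binding protein gene, 0 were called as risen and 3 as fallen, with a median of −0.50. HNRNPA1P59 had 21, 34 and 17 counts in control, against 1, 7 and 4 in curcumol. HNRNPA1P16 had 25, 20 and 27 counts, against 7, 10 and 7. Both passed the filter through the control group alone, so their calls are no support for a fall, and the median includes them. HNRNPA1P48 fell by 0.39 ± 0.14. Of 4 tested copies of PPIA, a cyclophilin gene, 1 rose, PPIAP29 by 1.37 ± 0.28. The tested copies of GAPDH and EEF1B2, 1 each, rose, and so did 1 of 2 of EIF4A1, while no copy of TPT1 was tested.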
